A study of Mus musculus with 16 samples.

Results

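Follistatin, activin and activin receptor genes were followed through 16 RNA libraries of mouse colorectal tumours. The set held 9 genes of the 54532 in the count table, taken by symbol: the activin-binding proteins Fst and Fstl3, the related secreted protein Fstl1, the activin subunit genes Inhba and Inhbb, the type I receptor genes Acvr1 and Acvr1b, and the type II receptor genes Acvr2a and Acvr2b. All 9 symbols had 1 row each, and all 9 passed the filter on low counts that kept 18777 genes. The set was proposed with the difference between the tumour types already known, so that difference is described for these genes and carries no test.

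Tumours were grown in the descending colon wall of C57BL/6 mice from MC38, a mouse colon carcinoma line, in a form with microsatellite instability (MSI) or with chromosomal instability (CIN). All mice also received dendritic cells, grown from bone marrow, by injection into the peritoneal cavity (days 1, 6 and 12), and tumours were taken on day 15. Those cells had been exposed for 30 minutes, with a lipid transfection reagent, to 2 µg of DNA from MSI or from CIN cells, given as free cytosolic DNA or as micronuclei, which are small membrane-bound bodies holding chromosome fragments. The 8 groups thus combined tumour (MSI or CIN), DNA source (MSI or CIN) and DNA form (free or micronuclei), with 2 libraries each, numbered 1 and 2 in the labels. How the MSI and CIN lines were made, and whether each is 1 clone, was not given. Tumours of mice without dendritic cells were not analysed here. RNA of 3 biological replicates was combined before sequencing. The sources do not say if every library had a separate pool. The p-values therefore rest on how far these libraries differed, and some of that spread may be technical.

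Libraries held 11561955 to 17937501 counts. Levels are CPM, the counts of a gene scaled to a common library total, with TMM factors, and a level per kilobase divides the CPM by the gene length in the count table. Markers of colon epithelium were detected in all libraries, none of the 10 at 0, with a summed level of 438.7 to 9662 CPM in MSI and 101.7 to 6254 CPM in CIN tumours. Skeletal muscle markers summed to 117.4 CPM or more in 5 libraries (MSI tumours given CIN micronuclei number 1, both CIN tumour libraries given MSI micronuclei, and number 2 of the CIN tumours given MSI or CIN free DNA) and to at most 30.05 CPM in the rest.

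Activins are dimers of the beta subunits encoded by Inhba and Inhbb. They bind a type II receptor (Acvr2a or Acvr2b), which recruits and phosphorylates a type I receptor, mainly the Acvr1b product ALK4, and the signal passes through Smad2 and Smad3. Acvr1 (ALK2) is best known as a receptor for bone morphogenetic proteins. Follistatin, from Fst, wraps around activin dimers and blocks both receptor sites, and Fstl3 acts in a similar way. Fstl1 shares a follistatin-type domain but is a distinct secreted glycoprotein, made largely by mesenchymal cells.

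Of the 9 genes, Fst was the one whose MSI and CIN libraries did not overlap. Its level in the 8 MSI tumour libraries ran from 33.4 to 81.9 CPM with a median of 60.8. In the 8 CIN tumour libraries it ran from 2.04 to 6.56 CPM with a median of 5.46. The lowest MSI library therefore lay above the highest CIN library, and the means were 59.8 ± 16.5 CPM and 5.03 ± 1.69 CPM (SD, n = 8 each), 11.9-fold apart. The CIN levels rested on 32 to 120 counts per library, so Fst was low but detected in every CIN library.

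The gap in Fst was of similar size for each kind of dendritic cell. In mice given MSI micronuclei, Fst was at 64.3 and 43.2 CPM in the MSI tumours and at 6.55 and 3.03 CPM in the CIN tumours. With CIN micronuclei the MSI tumours had 79.5 and 33.4 CPM and the CIN tumours 6.25 and 2.04 CPM. With free MSI DNA they had 81.9 and 54.3 CPM against 5.89 and 5.04 CPM. With free CIN DNA they had 61.2 and 60.4 CPM against 6.56 and 4.84 CPM. The 4 matched differences of mean log2 CPM were 3.52, 3.79, 3.58 and 3.40 in that order, and the fitted log2 fold change was 3.58 ± 0.30 (SE). Over 25 other fits to these same libraries or subsets of them it stayed between 3.33 and 3.84, a description that carries no test.

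In bulk tumour RNA, a larger share of cells that make a transcript and more of it per cell cannot be told apart. Among the marker lists, 5 of 8 endothelial genes passed the test as higher in MSI tumours (edgeR, adjusted p under 0.05), and the summed list ran from 111.8 to 176 CPM in MSI and from 68.6 to 128 CPM in CIN libraries. Of 8 tested mast cell genes 5 were higher. The summed list of 9 ran from 22.8 to 74.6 CPM in MSI and from 4.16 to 43.4 CPM in CIN libraries. Fcer1a, Ms4a2 and Tpsab1 averaged under 1 CPM, and Tpsab1 was among the 5 called. The fibroblast list of 10 genes, none at 0, summed to 1869 to 5266 CPM in MSI and 2309 to 4651 CPM in CIN libraries. All 3 summed lists overlapped between the tumour types. Every gene of the smooth muscle, colon epithelium and T cell lists had a positive log2 difference (medians 1.08, 1.01 and 0.34), but none passed. Every skeletal muscle gene had a negative one (median -2.15), and none passed. The macrophage, neutrophil, mesothelium and adipocyte lists were mixed in direction. The part of any list in the Fst difference was not tested.

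**Figure D1:**
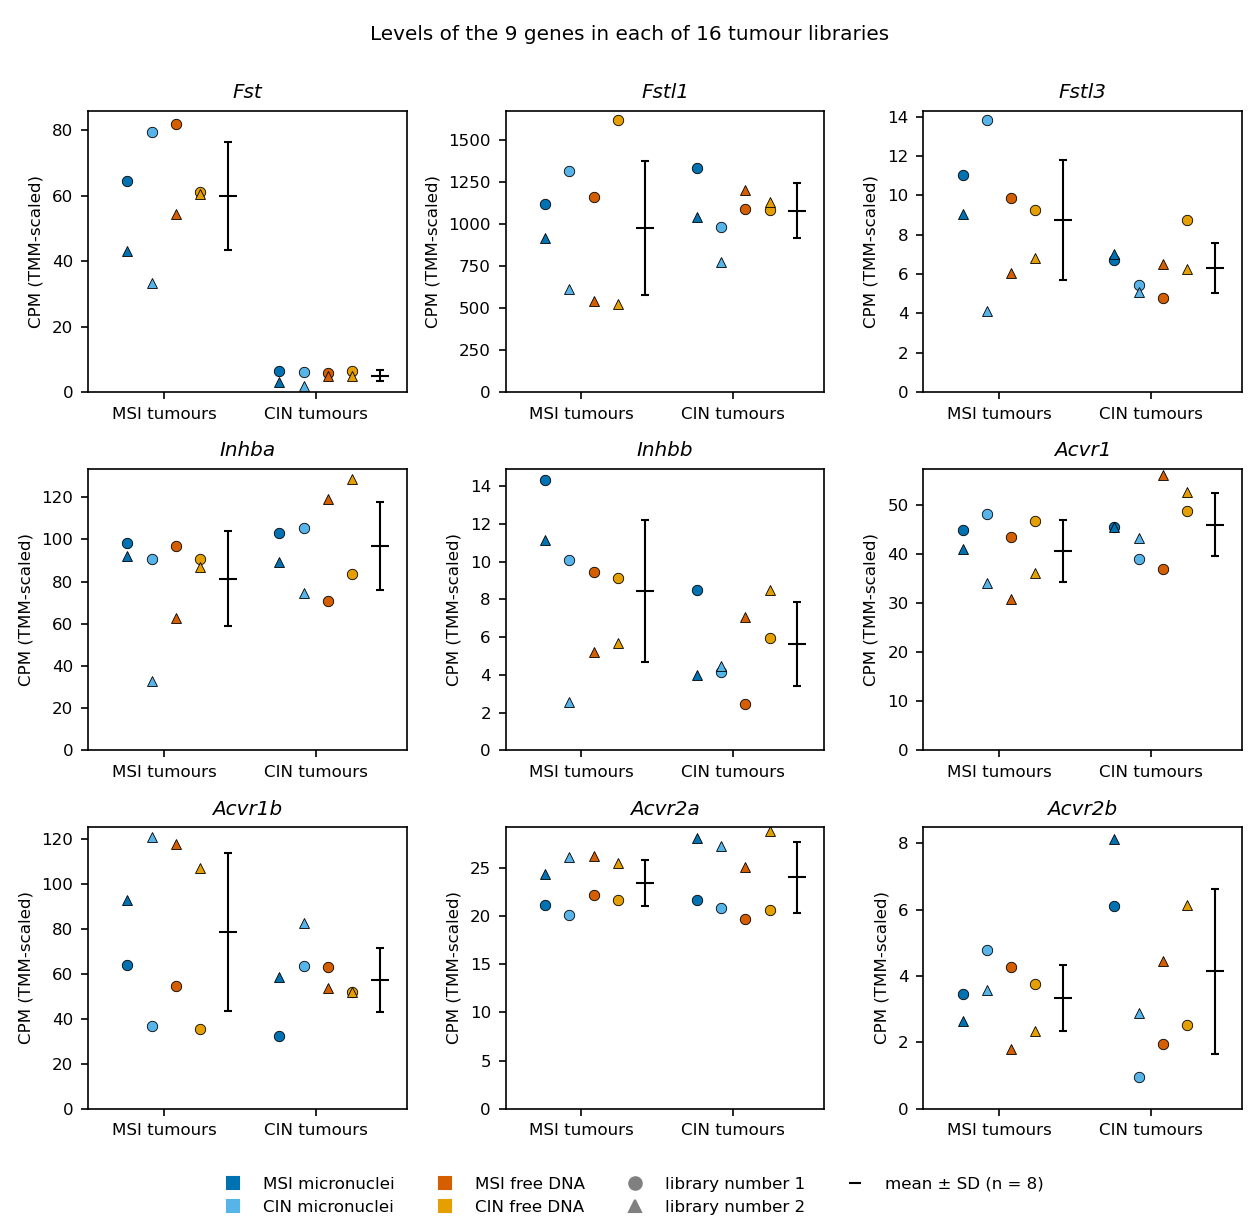
Level of each of the 9 genes in CPM (vertical axis, linear, from 0) in the 8 MSI and 8 CIN tumour libraries. Colour gives the DNA that the dendritic cells had received, shape the library number, and bars the mean ± SD of 8 libraries. Fst separates the tumour types (33.4 to 81.9 against 2.04 to 6.56 CPM), while the other 8 genes overlap.

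The shares over all genes give the scale for these counts. Of 18777 genes, 1.23% had every MSI library above every CIN library and 1.88% every MSI library below. By the edgeR test 2.32% were higher in MSI tumours and 3.48% lower. Since the set was chosen on this contrast, nothing is read from 1 separated gene in 9. The median log2 fold change was -0.03 over the 9 genes and 0.06 over all genes.

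The other binding proteins did not share the Fst gap. Fstl1 was the most abundant of the 9 genes per length, at 209.1 CPM per kilobase over the 16 libraries (range 106.2 to 329.3), above all other members in every library. Its CPM ran from 521.7 to 1618 in MSI tumours, median 1016, and from 771.6 to 1333 in CIN tumours, median 1086. The ranges overlapped, with a log2 difference of -0.14 ± 0.26 (SE). Fstl3 was at 4.15 to 13.8 CPM in MSI tumours, median 9.16, and at 4.78 to 8.75 CPM in CIN tumours, median 6.39. In 5 of the 8 MSI libraries Fstl3 lay above all CIN libraries, but the others overlapped, and the log2 difference was 0.48 ± 0.24.

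The activin subunit genes overlapped between the tumour types too. Inhba ran from 32.9 to 98.3 CPM in MSI tumours, median 90.6, and from 70.6 to 128.6 CPM in CIN tumours, median 96.3. The log2 difference was -0.27 ± 0.22, and the lowest value belonged to number 2 of the MSI tumours given CIN micronuclei. Inhbb was scarcer, at 2.55 to 14.3 CPM in MSI tumours, median 9.29, and 2.46 to 8.50 CPM in CIN tumours, median 5.21, with a log2 difference of 0.56 ± 0.33. Per kilobase, Inhba exceeded Inhbb in all 16 libraries, by 7.03 ± 1.82 times in MSI and 12.6 ± 3.91 times in CIN tumours (SD, n = 8 each), with ranges of 4.57 to 10.2 and 8.09 to 19.1 that overlapped.

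Set against its ligand genes per kilobase, follistatin mRNA was near parity in MSI tumours and far below it in CIN tumours. The ratio of Fst to the sum of Inhba and Inhbb, all per kilobase, was 0.926 ± 0.222 in MSI libraries (range 0.554 to 1.27) and 0.0684 ± 0.0274 in CIN libraries (range 0.0349 to 0.111). Against Inhba alone it was 1.06 and 0.0742. Adding Fstl3 to Fst gave 1.17 ± 0.251 and 0.231 ± 0.0586, again without overlap. These ratios carry the Fst difference that chose the genes, and they compare mRNA, not protein. Their size also depends on the lengths in the count table, 4589 bases for Fst, 6390 for Inhba and 4255 for Inhbb. The transcripts present may have other lengths.

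**Figure D2:**
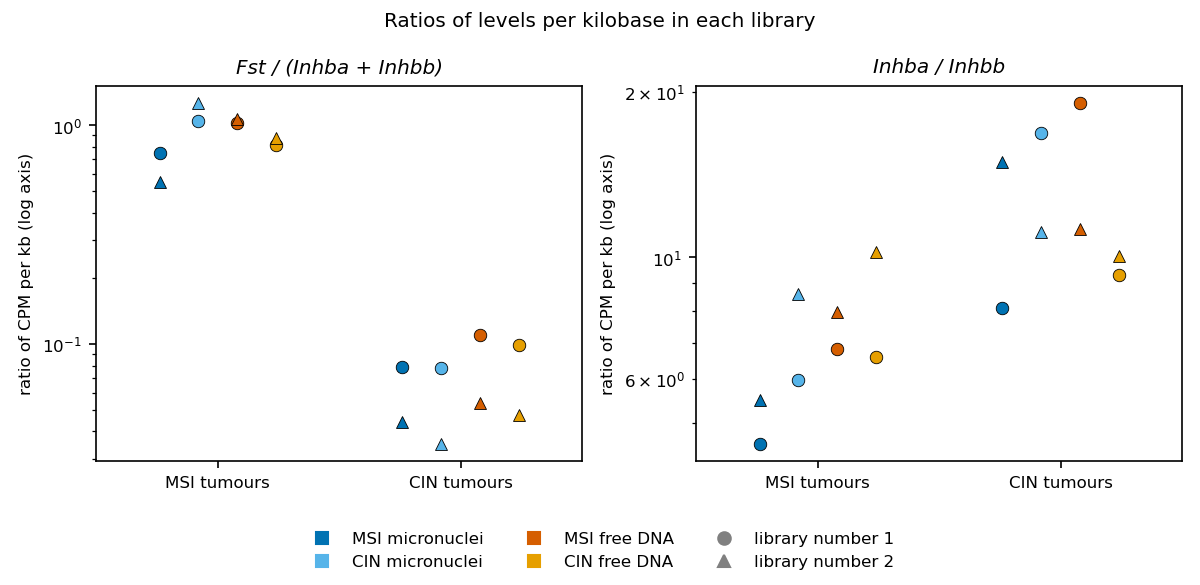
Ratio of Fst to the sum of Inhba and Inhbb (left) and of Inhba to Inhbb (right) in each library, from CPM per kilobase on log axes, with colours for the DNA given and shapes for the library number. The left ratio lies between 0.554 and 1.27 in MSI and between 0.0349 and 0.111 in CIN tumours; the right ratios overlap.

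Transcripts of all 4 receptor genes were present in both tumour types at overlapping levels. Acvr1b, the main activin type I receptor gene, ran from 35.6 to 120.8 CPM in MSI tumours, median 78.2, and from 32.3 to 82.6 CPM in CIN tumours, median 56.2 (log2 difference 0.48 ± 0.31). Acvr1 ran from 30.7 to 48.1 CPM, median 42.2, and from 37.0 to 56.03 CPM, median 45.5 (-0.18 ± 0.13). Acvr2a was the steadiest gene of the set, at 20.2 to 26.3 CPM, median 23.3, and 19.8 to 28.8 CPM, median 23.4 (-0.03 ± 0.12), 1.46-fold from lowest to highest library. Acvr2b was the scarcest, at 1.81 to 4.79 CPM and 0.962 to 8.13 CPM (-0.17 ± 0.33), its lowest library holding 12 counts.

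Apart from Fst, the direction between the tumours was not stable for most members. In the libraries numbered 1 alone, the log2 differences of Fstl1, Inhba and Acvr1 turned to 0.21, 0.07 and 0.11, that of Acvr1b to -0.19, and those of Acvr2a and Acvr2b to 0.04 and 0.62. In the libraries numbered 2 alone Fstl3 and Inhbb were at 0.05 and 0.00, against 0.77 and 1.04 in those numbered 1. Fstl1 also turned, to 0.02, without number 2 of the MSI tumours given free CIN DNA. Acvr2a and Acvr2b turned, to between 0.01 and 0.07, without number 2 of the CIN tumours given CIN micronuclei, free MSI DNA or free CIN DNA, and Acvr2a also, to 0.01 and 0.02, without number 1 of the MSI tumours given CIN micronuclei or number 2 of the CIN tumours given MSI micronuclei. With the 5 libraries high in skeletal muscle markers left out, Acvr2a was at 0.15 and Acvr2b at 0.61.

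Per kilobase and over all libraries, the order after Fstl1 was Acvr1b at 15.4 CPM, Inhba at 13.9, Acvr1 at 8.96, Fst at 7.06, Acvr2a at 4.18, Fstl3 at 3.08, Inhbb at 1.66 and Acvr2b at 0.951. From Acvr1b down, the ranges of neighbours in this order overlapped. Fst changed its place with the tumour, at 13.03 ± 3.59 CPM per kilobase in MSI tumours, beside Inhba at 12.7 ± 3.52, and at 1.10 ± 0.367 in CIN tumours, beside Inhbb at 1.32 ± 0.524 and Acvr2b at 1.05 ± 0.632. The Acvr2a row overlaps 446 bases of Orc4 on the opposite strand, a gene with up to 982 counts in a library. Whether counting used the strand, and how it treated reads in the overlap, is not given. The overlap could thus affect the Acvr2a level in a direction that cannot be told. The antisense gene Gm47040 over Fst had 25 counts in all MSI and 3 in all CIN libraries.

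The design also asks whether the DNA carried by the dendritic cells mattered, a comparison that did not choose the genes. No member passed the test for DNA source or DNA form, or for the interaction of either with the tumour type, and none reached an unadjusted p of 0.05. Fst averaged 33.0 CPM (range 3.03 to 81.9) over the 8 libraries given MSI DNA and 31.8 CPM (2.04 to 79.5) over the 8 given CIN DNA, with a log2 difference of 0.06 ± 0.27 (SE, adjusted p = 1). Free DNA against micronuclei gave 0.28 ± 0.27 for Fst (adjusted p = 1), with means of 35.0 and 29.8 CPM. The half-differences between the tumour types were -0.01 ± 0.27 for source and -0.05 ± 0.27 for form. For Inhba the log2 differences were 0.10 ± 0.22 by source and 0.12 ± 0.22 by form. These errors leave room for changes that the test would not call.

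No gene at all was called in these comparisons. The share called was 0% of 18777 genes for source, 0% for form, and 0% for each of the 2 interactions, while 209, 148, 285 and 159 genes in that order had an unadjusted p under 0.05. DESeq2 called 0, 0, 2 and 0 genes, with 249, 198, 366 and 204 at an unadjusted p under 0.05, and no member among those called. The widest member difference was the tumour by source term of Acvr2b, -0.48 ± 0.33 (edgeR unadjusted p = 0.174, adjusted p = 1.00). Acvr2b averaged 5.16 CPM (1.94 to 8.13) in the 4 CIN tumour libraries given MSI DNA and 3.12 CPM (0.962 to 6.14) in the 4 given CIN DNA, against 3.05 CPM (1.81 to 4.26) and 3.61 CPM (2.33 to 4.79) in MSI tumours. Both pairs of ranges overlapped.

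**Figure D3:**
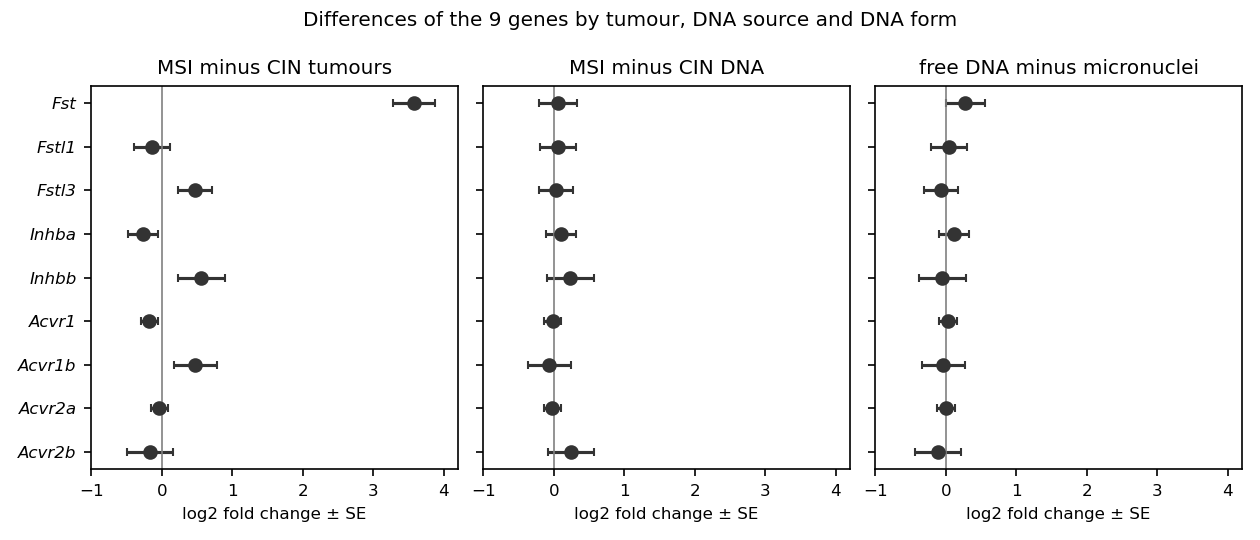
Fitted log2 fold change ± SE of the 9 genes (horizontal axes) for MSI minus CIN tumours, MSI minus CIN DNA and free DNA minus micronuclei, each over all 16 libraries. Fst stands at 3.58 in the left panel, where the values describe how the genes were chosen; in the other panels no gene passed the test.

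Within a tumour type the members varied along other lines. In MSI tumours Acvr1b was at 35.6 to 63.8 CPM in the 4 libraries numbered 1 and at 92.6 to 120.8 CPM in the 4 numbered 2. Fstl1 went the other way, at 1116 to 1618 CPM and 521.7 to 915.6 CPM. Neither pair of ranges overlapped, and Fst (61.2 to 81.9 and 33.4 to 60.4 CPM), Fstl3, Acvr1 and Acvr2a were separated by library number in MSI tumours as well. The share of all genes separated by number in MSI tumours alone was not counted. Nothing is therefore read from how many members were. What the number stands for, beyond naming a library, is not stated in the labels.

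Fst and Acvr2a were the members separated by number in both tumour types. In CIN tumours Fst was at 5.89 to 6.56 CPM in libraries numbered 1 and at 2.04 to 5.04 CPM in those numbered 2. Acvr2a was at 19.8 to 21.7 CPM and 25.2 to 28.8 CPM there, and at 20.2 to 22.2 CPM and 24.4 to 26.3 CPM in MSI tumours, so all 8 libraries numbered 1 lay below all 8 numbered 2. Over all genes, 1.42% were separated in both tumour types with number 1 higher, as Fst was, and 0.618% with number 2 higher, as Acvr2a was. The tumour gap in Fst was larger than this spread, since within the libraries numbered 1 its means were 71.7 ± 10.5 and 6.32 ± 0.315 CPM and within those numbered 2 they were 47.8 ± 12.0 and 3.74 ± 1.45 CPM (SD, n = 4 each).

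Colon epithelium markers moved with the library number in MSI tumours. Their summed level was 438.7 to 2953 CPM in the MSI libraries numbered 1 and 6141 to 9662 CPM in those numbered 2. The smooth muscle list moved likewise, at 454.7 to 1287 CPM and 2083 to 5259 CPM. So did the mesothelium, mast cell, neutrophil and adipocyte lists, again without overlap. The macrophage list went the other way, at 2015 to 2665 CPM and 1200 to 1715 CPM. The fibroblast, endothelial, skeletal muscle and T cell lists overlapped between the numbers. In CIN tumours the library with the fewest colon markers, number 1 given MSI micronuclei at 101.7 CPM, had the lowest Acvr1b (32.3 CPM) and the highest Fstl1 (1333 CPM) of its tumour type. The library with the most, number 2 given CIN micronuclei at 6254 CPM, had the highest Acvr1b (82.6 CPM) and the lowest Fstl1 (771.6 CPM). The part of transcripts of any of these cell types in the levels of the members was not tested.

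**Figure D4:**
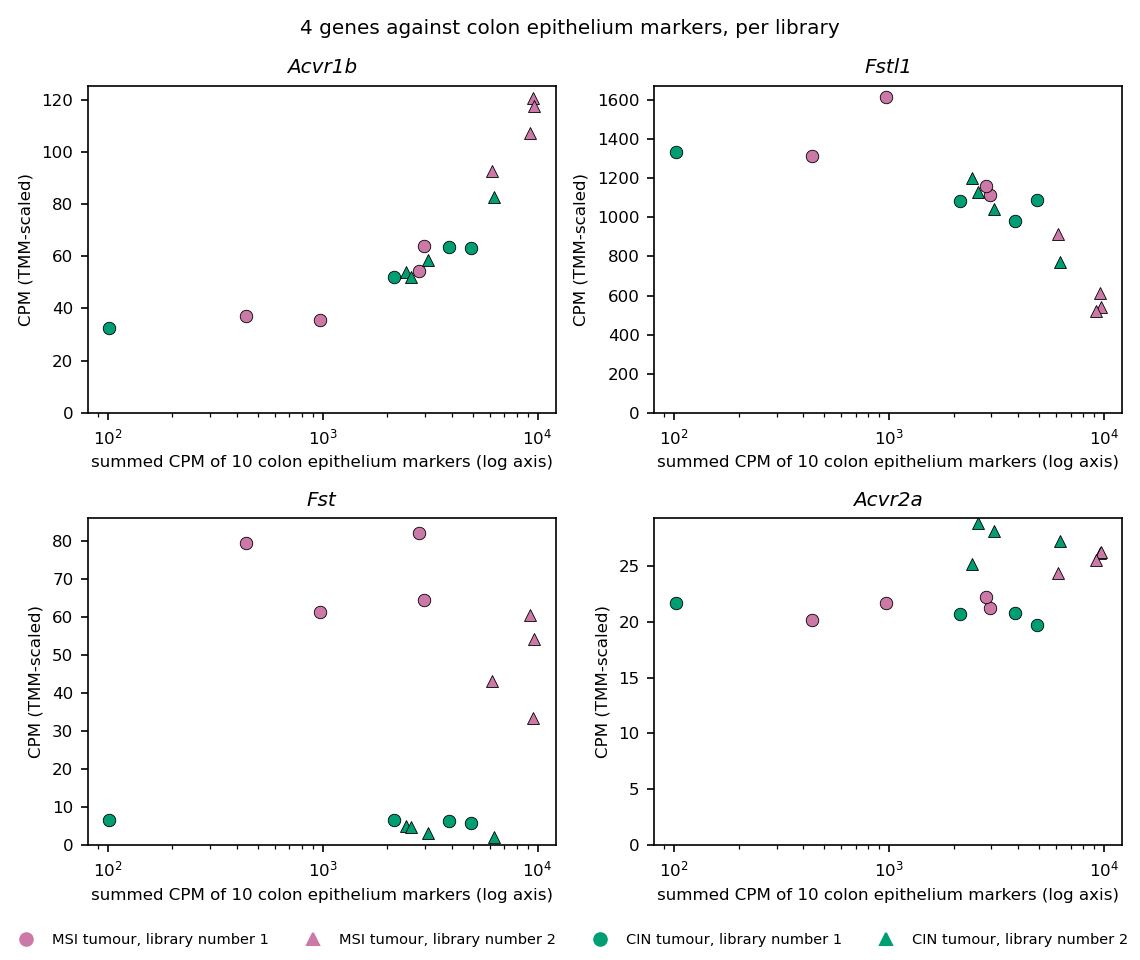
Level of Acvr1b, Fstl1, Fst and Acvr2a in CPM (vertical axes, linear) against the summed CPM of 10 colon epithelium markers (horizontal axes, log scale) in the 16 libraries, coloured by tumour and shaped by library number. The 4 MSI libraries numbered 2, at 6141 to 9662 CPM of colon markers, have the highest Acvr1b of the 16, and Fstl1 there is at 521.7 to 915.6 CPM; Fst is at 33.4 to 81.9 CPM in MSI and 2.04 to 6.56 CPM in CIN libraries.

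Inhba and Inhbb had the highest positive correlation of any pair of members in their deviations from the mean of the tumour type (Pearson r = 0.856), and Inhbb and Fstl3 the next (0.801), as a description over 16 libraries that share their tumours and depth. Fstl1 and Acvr1b went in opposite directions (-0.925). In number 2 of the MSI tumours given CIN micronuclei all 3 were at their MSI minimum, 32.9, 2.55 and 4.15 CPM, and in number 1 of the CIN tumours given free MSI DNA they were at their CIN minimum, 70.6, 2.46 and 4.78 CPM. Varying together was not particular to these 3, since Acvr1 correlated with Inhbb at 0.786 and with Fstl3 at 0.772. The RefSeq bases before the start of each gene (GRCm38.p6) are shown for Inhba, Inhbb and Fstl3, the genes of the pairs named first. They are 250 bases written 5′ to 3′ on the gene's strand. Capitals mark matches to TATAAA or to CAGACA, a short sequence searched for as a Smad binding element, on either strand. Inhba lies on the plus strand (chr13:16011601-16011850), Inhbb on the minus strand (chr1:119422249-119422498) and Fstl3 on the plus strand (chr10:79777024-79777273).
Inhba: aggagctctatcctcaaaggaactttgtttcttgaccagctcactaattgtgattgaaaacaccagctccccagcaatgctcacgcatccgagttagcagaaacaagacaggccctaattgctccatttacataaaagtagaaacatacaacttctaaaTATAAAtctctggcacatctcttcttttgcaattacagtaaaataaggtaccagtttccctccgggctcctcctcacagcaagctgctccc
Inhbb: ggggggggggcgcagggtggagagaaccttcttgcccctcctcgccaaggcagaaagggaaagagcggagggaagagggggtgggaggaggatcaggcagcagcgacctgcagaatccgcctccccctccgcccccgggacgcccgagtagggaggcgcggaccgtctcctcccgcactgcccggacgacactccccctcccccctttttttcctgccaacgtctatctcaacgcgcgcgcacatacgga
Fstl3: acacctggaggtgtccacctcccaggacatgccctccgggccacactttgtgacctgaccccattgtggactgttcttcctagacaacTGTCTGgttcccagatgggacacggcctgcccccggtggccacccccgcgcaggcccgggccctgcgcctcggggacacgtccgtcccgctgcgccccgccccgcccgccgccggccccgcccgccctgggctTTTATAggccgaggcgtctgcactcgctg

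The 3 stretches differ in base composition, with 43.2% G and C for Inhba, 68.0% for Inhbb and 71.2% for Fstl3. TATAAA begins 91 bases before the start of Inhba, on the gene's strand. In Fstl3 both matches lie on the opposite strand. They are printed as TTTATA from 29 bases and TGTCTG from 162 bases before the start. Among 32851 promoters of the same length, 12.4% held TATAAA and 17.1% held CAGACA on either strand. The palindrome GTCTAGAC (0.167% of promoters), TGACGTCA (1.55%) and TGANTCA (6.75%) were in none of the 8 members in the promoter table, which had no entry for Fst. A match is a run of letters and no measure of binding.

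Genes with a pattern like that of Fst were ranked over 12723 protein-coding genes by Pearson correlation of log2 CPM, as a description over 16 libraries that share their tumours and depth. The closest was Amigo2, a cell adhesion gene, at r = 0.979, with mean levels of 198.6 CPM in MSI and 30.8 CPM in CIN tumours. Snx5 (0.955), Ppp1r2 (0.954), Ube2n (0.950) and Magoh (0.949) came next, with smaller gaps, such as 258.2 and 180.4 CPM for Snx5. These correlations carry the difference in Fst between the tumour types that chose the genes. After the mean of each tumour type was taken away, the genes most like Fst were Idh2, Cfl1, Pfn2, Rtca and Selenoh (0.891 to 0.883). By the same measure Inhba was most like Lbx1 (0.931), Ctsl, Adgrg6, Uhrf1bp1l and Gdnf. Fstl1 was most like Epn2 (0.985), Col16a1, Dnm1, Timp2 and Dpy19l1, and Fstl3 most like Rassf1 (0.961), Spred3, Hoxb7, Slc6a15 and Tars2.

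The rest of the pathway was read from 80 listed genes that are not members, 65 of them tested. MSI tumours had 1 of them higher and 6 lower than CIN tumours (edgeR, adjusted p under 0.05), beside 2.32% and 3.48% of all genes. The median log2 fold change was -0.02, against 0.06 for all genes. All these lists were drawn up with results of these data known, so the counts are a description. The higher gene was Chrd, encoding the bone morphogenetic protein antagonist chordin, at 9.98 ± 1.59 CPM in MSI and 5.11 ± 1.48 CPM in CIN tumours (SD, n = 8; log2 fold change 0.99 ± 0.16 SE, adjusted p = 0.00689). Its libraries did not overlap.

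Among ligands and receptors outside the set, Tgfb1 and Bmpr2 were lower in MSI tumours. Tgfb1, the gene of a ligand that also signals through Smad2 and Smad3, ran from 35.1 to 58.6 CPM in MSI and from 59.5 to 110.3 CPM in CIN libraries, without overlap (-0.77 ± 0.15, adjusted p = 0.0150). Bmpr2, a type II receptor gene for bone morphogenetic proteins, ran from 66.0 to 88.3 CPM and from 97.7 to 148.1 CPM (-0.61 ± 0.12, adjusted p = 0.0144). Of the other activin-family and bone morphogenetic protein ligands 8 of 16 were tested and none was called. Inha, the inhibin alpha subunit gene, was at 9.54 ± 4.46 and 11.0 ± 2.57 CPM (adjusted p = 0.680). Inhbc and Inhbe averaged under 0.1 CPM and were not tested. Acvr1c, encoding the type I receptor ALK7, was at 2.37 ± 2.09 and 1.63 ± 0.804 CPM (adjusted p = 0.573), and the decoy receptor gene Bambi at 4.16 ± 1.79 and 3.23 ± 0.763 CPM (adjusted p = 0.429).

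Of 9 genes often used as readouts of Smad2 and Smad3, all tested, 4 passed the test as lower in MSI tumours and 5 did not pass, beside 3.48% of all genes called lower. The median log2 fold change was -0.55 over the 9 and 0.06 over all genes. Col1a1, a collagen gene that is also on the fibroblast list, ran from 216.1 to 501.2 CPM in MSI and from 681.2 to 1197 CPM in CIN libraries (-1.39 ± 0.12, adjusted p = 2.59e-04). Ldlrad4, a membrane inhibitor of the pathway, averaged 8.27 ± 2.24 and 16.3 ± 4.05 CPM (-0.99 ± 0.20, adjusted p = 0.0194). The feedback genes Smad7 (-0.55 ± 0.14, adjusted p = 0.0482) and Skil (-0.38 ± 0.08, adjusted p = 0.0236) completed the 4. Pmepa1 was at 101.8 ± 20.4 and 125.8 ± 8.11 CPM and did not pass (-0.32 ± 0.10, adjusted p = 0.0998). The list was drawn up with results of these data known, so its count is a description.

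Of the Smad genes and their regulators, Smad7 and Skil were the 2 called of 15 tested. Smad2 was at 58.4 ± 8.39 and 59.4 ± 5.84 CPM (adjusted p = 0.894) and Smad3 at 68.2 ± 9.52 and 72.3 ± 13.2 CPM (adjusted p = 0.705). Of 8 genes often used as readouts of Smad1 and Smad5 none was called, with a median log2 fold change of -0.06, and Id1 was at 87.4 ± 57.3 and 65.4 ± 20.4 CPM (adjusted p = 0.571). Of 8 other genes with a follistatin-type domain that were tested none was called. For source, form and the interactions none of the 65 pathway genes passed, and 1, 0, 0 and 0 had an unadjusted p under 0.05.

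Of the 7 calls, 5 were lost on leaving out some single library. Col1a1 and Chrd passed with any 1 of the 16 left out. Tgfb1 and Bmpr2 passed in 13 of 16, both lost without number 2 of the MSI tumours given MSI micronuclei and without number 2 of the CIN tumours given free MSI DNA, Tgfb1 also without number 2 of the CIN tumours given free CIN DNA and Bmpr2 also without number 1 of the MSI tumours given MSI micronuclei. Ldlrad4 passed in 11 of 16, lost without any of those 4 libraries or number 2 of the MSI tumours given free MSI DNA. Skil passed in 6 and Smad7 in 2. In the libraries numbered 1 alone Tgfb1, Bmpr2, Chrd, Skil and Ldlrad4 were not called, and in those numbered 2 alone Smad7 was not. The count of 7 fell to 3 and 2 without number 1 or 2 of the MSI tumours given MSI micronuclei, to 4 without number 2 of the MSI tumours given free MSI DNA, and to 2 and 3 without number 2 of the CIN tumours given free MSI or free CIN DNA. With the 5 libraries high in skeletal muscle markers left out, 1 gene, Col1a1, was called.

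**Figure D5:**
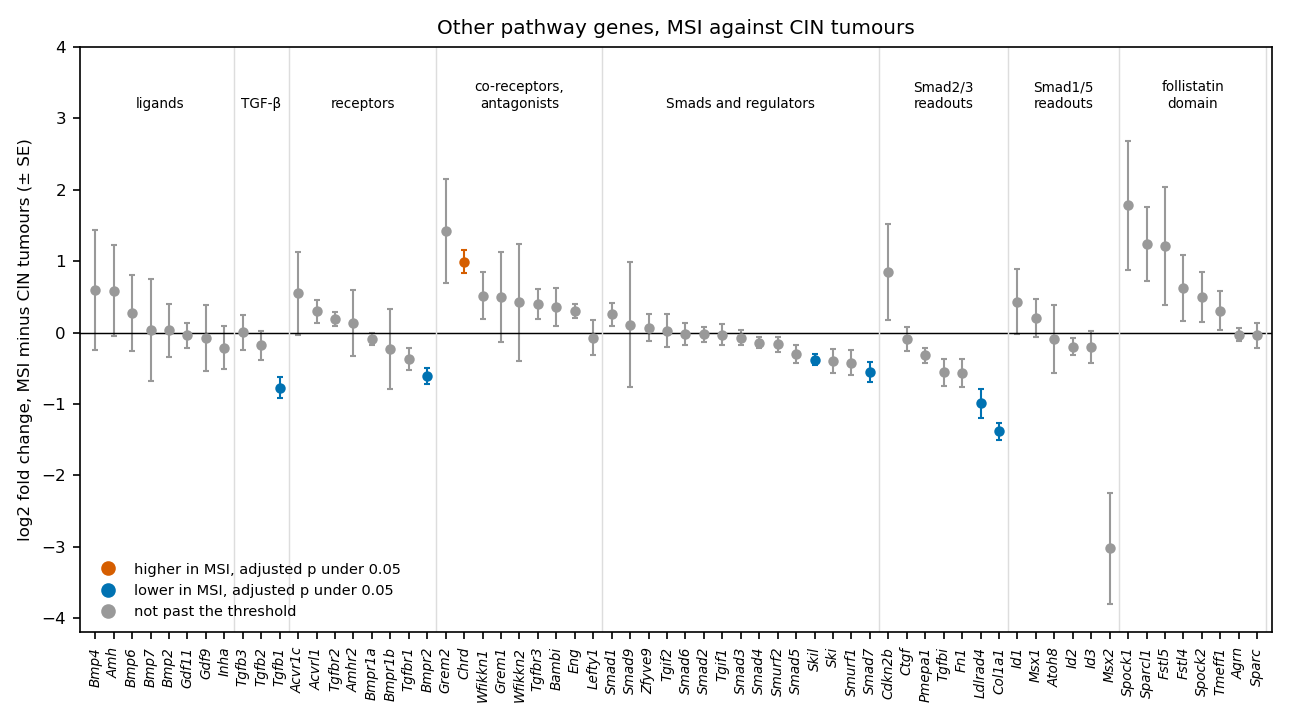
Log2 fold change ± SE of 64 of the 65 tested pathway genes outside the set, MSI minus CIN tumours, grouped by role. Nog is left out because its SE, derived from the test statistic, was 438.738 at a log2 fold change of 0.018. Chrd (0.99) is the one called higher, and Tgfb1, Bmpr2, Skil, Smad7, Ldlrad4 and Col1a1 are the 6 called lower.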

How the data were processed

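The authors deposited whole-number counts per gene for 16 libraries of poly-A selected tumour RNA, with gene coordinates and lengths. The submitters' processing notes list the build GRCm39, featureCounts 1.5.0-p3, HISAT2 2.0.5 and fastp. However, 53499 of the 54409 genes in common with GENCODE M21 carried GRCm38 coordinates, and these are printed. The table had 4 columns that matched no sample and were not used. From the counts, edgeR 4.0.16 in R 4.3.3 was fitted with TMM scaling, filterByExpr by group, 1 mean per group over all 16 libraries (interactions halved), robust quasi-likelihood tests and Benjamini-Hochberg adjustment over 18777 genes at 0.05. It was tested on simulated data. Each SE of a fitted difference was the size of the log2 fold change divided by the square root of the quasi-likelihood F statistic. For the members' difference between tumour types, the SE is a description and carries no test. No 2 libraries of a group were copies of each other (chi-square over its degrees of freedom at least 19.5); that they are independent replicates is not shown by this. The biological coefficient of variation was 0.43. Alternatives were DESeq2 1.42.0, RLE scaling, no filter, replicate blocks, an additive model, subsets and each library left out. The members, lists and alternatives were chosen with earlier results of these data known. Named were all 9 members, up to 4 called genes in each direction per pathway list, 9 fixed pathway genes (another listed gene is not reported here), and the 5 genes most like each of Fst, Inhba, Fstl1 and Fstl3 (mean log2 CPM of at least 1).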

Additional observations from a re-analysis of the deposited data

How the results depend on the processing

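The log2 fold change of Fst between tumours kept its sign in all 25 alternatives (3.327 to 3.836). Fstl3 (0.050 to 0.769) and Inhbb (0.003 to 1.035) came close to 0, and the other 6 members turned in at least 1, Acvr1b ranging from -0.185 to 0.839, Fstl1 from -0.696 to 0.205, Inhba from -0.584 to 0.068 and Acvr2a from -0.099 to 0.145. Acvr1 was at 0.105 and -0.475, and Acvr2b at 0.616 and -1.079, in the libraries numbered 1 or 2 alone, and Acvr2b at 0.608 with the 5 libraries high in skeletal muscle markers left out. The count of all genes called between tumours (1089) was 2295 by DESeq2, 1950 in the additive model, 1778 with a replicate block, 3428 with that block within each tumour type, 135 without those 5 libraries, and 543 and 6071 in libraries numbered 1 or 2 alone. With 1 library left out it ran from 477 (CIN tumour, free MSI DNA, number 2) to 1758 (MSI tumour, CIN micronuclei, number 1), and 11 of the 16 omissions moved it by over 1.5 times. The count of pathway genes (7) was 11 by DESeq2, 15 with the block within tumour types, 1 without the 5 libraries, 5 (with 5 of the 7 genes lost) and 21 in libraries numbered 1 or 2 alone, and 2 to 8 with 1 library left out. DESeq2 called 2 genes for the tumour by source interaction. The cause was not tested. Deviations from the group mean of same-numbered libraries correlated over 0.1 in all 6 pairs of MSI groups (0.396 to 0.796), in 2 of 6 pairs of CIN groups and in 16 of 28 pairs in all (-0.539 to 0.796). The numbers thus followed a shared difference in MSI tumours but did not pair all 16 libraries, and the block is an alternative only. It called no member for source, form or the interactions. CIN levels of Fst and levels of Acvr2b and Inhbb (33 to 174 counts per library for Inhbb) rest on few counts. The spread between libraries limits the other genes.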
